A study of Drosophila melanogaster with 24 samples.

Results

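Of 11145 accessible chromatin peaks measured in brains of adult female Drosophila melanogaster, 278 peaks, or 2.49%, lay over a long noncoding RNA gene or an antisense RNA gene and over no protein-coding gene. A peak was taken when it shared at least 1 bp with a gene whose symbol starts with lncRNA: or asRNA: and touched no protein-coding gene body in the Release 6 gene table, and 1 further peak was left out because it lay within 1 kb of a tRNA gene. The 278 peaks covered 183 distinct noncoding genes. Of these genes, 144 had a single peak and 11 had 4 or more. Long noncoding RNA genes alone accounted for 269 peaks, antisense genes alone for 7, and both kinds for 2.

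Long noncoding RNAs are transcripts that are not read as proteins. Some act as RNAs, such as roX1 in X-chromosome dosage compensation, some are precursors of small RNAs, and for most Drosophila loci with a CR number no role is known. Open chromatin at such a gene marks DNA where nucleosomes are sparse or loose, at promoters, enhancers or insulators, and does not by itself report the level of the RNA. Histone H3.3 is the variant that replaces H3 in nucleosomes outside DNA replication, which makes it a main source of H3 in non-dividing cells such as neurons, while H3.2 is made in S phase.

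Accessibility was profiled by ATAC-seq, in which a transposase inserts adapters into open DNA. There were 8 groups of 3 libraries: OreR, H3.3S31A, H3.3H3.2 and H3.3null, each at day 1 and day 10 after eclosion. OreR is the Oregon-R wild-type strain and the control, which the sample titles call H33WT. By their names, H3.3null makes no H3.3, H3.3H3.2 makes H3.2 in place of H3.3, and H3.3S31A carries alanine in place of serine 31 of H3.3. The extraction text of the labels describes RNA from pooled brains rather than genomic DNA, and the preparation of the ATAC-seq libraries is not given there. The labels give neither the alleles nor a control from the mutants' own stock. The H3.3 change and the stock background therefore cannot be told apart in any comparison between genotypes, including H3.3H3.2 with H3.3null.

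Total counts in peaks ran from 3021672 to 4890579 per library. All 278 peaks passed the filter on low counts, with a lowest count of 34 and a median count of 325.5 per peak and library. The His3.3B peak at X 9154788 gave 9.34 to 18.5 counts per 1000000 counts in peaks (CPM) in the 6 H3.3null libraries and 36.6 to 48.4 CPM in OreR, whereas the other 2 His3.3B peaks did not separate in this way. Of the 2 peaks at His3.3A, the other H3.3 gene, the one at 5055623 was higher in H3.3null, with 41.4 to 65.4 CPM against 18.01 to 27.43 CPM in OreR, and the other overlapped between the genotypes. Peaks were present at the neuronal genes elav, nSyb and brp and at the glial gene repo in every genotype.

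The noncoding-gene peaks were a little wider than average, with a median width of 565 bp against 455 bp for all peaks. Per length they were about as open as other peaks, with a median of 144 CPM per kb in OreR at day 1 against 136.8 CPM per kb over all peaks. Their range was 51.7 to 396.8 CPM per kb. The X chromosome carried 83 of them, 2L 62, 3L 53, 3R 50, 2R 29 and chromosome 4 carried 1. The centre lay inside the noncoding gene in 216 of the 278 peaks. In the rest it lay outside, as for the CR44697, CR43857 and CR31840 peaks described further on. The centre lay within 500 bp of an end of the noncoding gene in 144 peaks. The nearest protein-coding gene was under 500 bp away for 42 peaks, 500 to 5000 bp away for 119 and farther for 117.

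Loss of H3.3 was accompanied by the most calls. The threshold for a call was an adjusted p under 0.05 in edgeR's quasi-likelihood test over all peaks. At day 1, 55 of the 278 peaks were higher in H3.3null than in OreR and 27 were lower, which is 29.5% against 24.7% of all peaks. At day 10, 56 were higher and 29 lower, 30.6% against 24.5%. The higher direction led in both sets, with 14.1% of all peaks higher and 10.6% lower at day 1, and 15.5% higher and 9% lower at day 10. Between the ages, which use different libraries, 55 noncoding-gene peaks were called in the same direction, 67.1% of the day 1 calls and 64.7% of the day 10 calls, and 1, in flam, was called in opposite directions, with both calls lost without some single libraries. Most changes were modest: the median size of a called change was 0.53 on the log2 scale at day 1 and 0.54 at day 10, and 19 and 20 peaks changed by 2-fold or more. Over all called peaks the medians were likewise 0.53 and 0.54. Counts of calls at both ages and of 2-fold changes are not given over all peaks, so they have no background here.

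Fewer peaks were called in the other mutants. In H3.3H3.2, 13 peaks were higher and 15 lower than OreR at day 1, which is 10.1% against 11.1% of all peaks (6.94% higher, 4.21% lower). At day 10, 15 were higher and 16 lower, 11.2% against 10.7% of all peaks (7.13% higher, 3.54% lower). In H3.3S31A, 4 were higher and 21 lower at day 1, which is 8.99% against 10.5% of all peaks (6.24% higher, 4.27% lower). At day 10, 6 were higher and 12 lower, 6.47% against 10.2% of all peaks (6.43% higher, 3.77% lower). Peaks of CR46268 and flam, described further on, made up 8 of the 15 and 7 of the 16 lower calls in H3.3H3.2, and 9 of the 21 and 7 of the 12 in H3.3S31A. With both directions together, the called shares are near or below the background. By direction the balance differed: lower calls outnumbered higher calls in each of these comparisons, whereas higher calls led over all peaks. In H3.3H3.2 this balance rested on CR46268 and flam, whose peaks were counted separately. Outside these loci higher calls led in H3.3H3.2 at both ages, while lower calls still led in H3.3S31A. With only the compared groups in the fit, the day 10 count in H3.3H3.2 was 53, or 19.1%, against 15.5% of all peaks. Without OreR day 1 replicate 2 the day 1 counts fell to 16 for H3.3S31A and 17 for H3.3H3.2. Over all 6 comparisons with OreR, 128 noncoding-gene peaks over 93 genes had at least 1 call and 150 peaks had none. The matching count over all peaks is not given, so this count has no background here.

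The direct comparison of H3.3H3.2 with H3.3null gave more calls than the background. Here 13 peaks were higher and 41 lower in H3.3H3.2 at day 1, which is 19.4% against 11.4% of all peaks (4.91% higher, 6.44% lower). At day 10, 15 were higher and 42 lower, 20.5% against 10.7% of all peaks (3.64% higher, 7.05% lower).

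**Figure D1:**
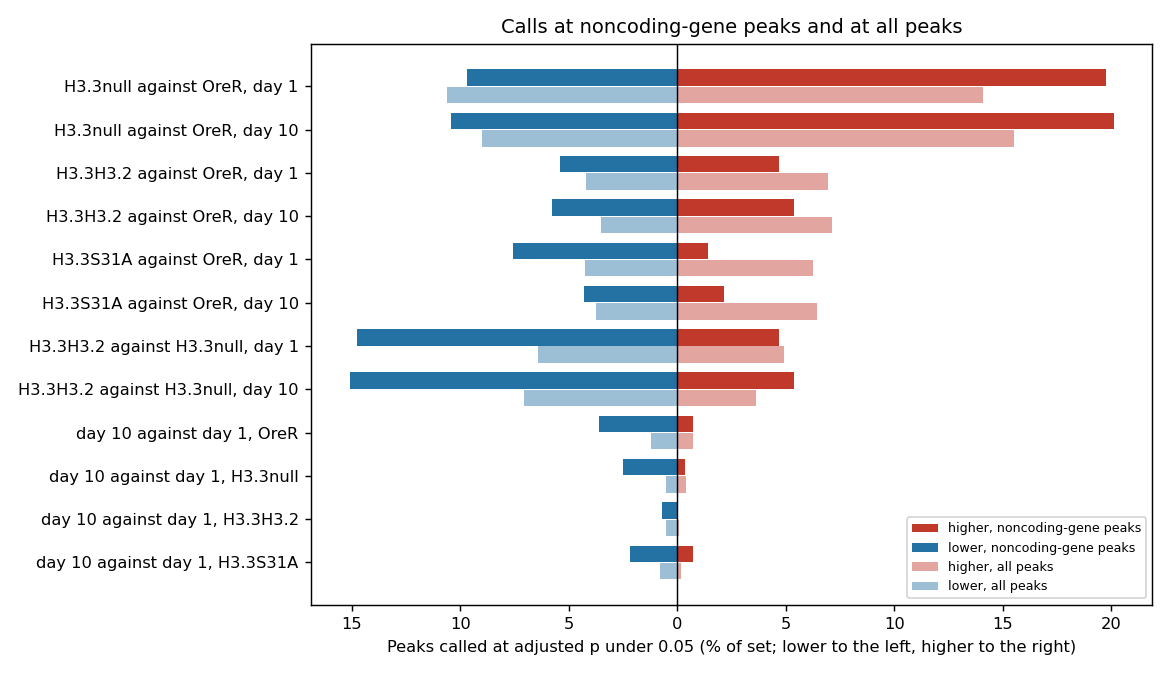
Percentage of peaks called at an adjusted p under 0.05 in each of the 12 comparisons of 2 groups, for the 278 noncoding-gene peaks (solid bars) and all 11145 peaks (pale bars), with lower calls to the left of 0 and higher calls to the right. The solid bars reach farthest in the 4 comparisons of H3.3null with another genotype, and the age comparisons have the shortest bars.

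The share of calls at these genes sat between those of other kinds of peak. In H3.3null at day 1, 34.9% of the 2631 peaks over neither gene class were called, 21.4% of the 7911 peaks over protein-coding genes alone, and 20.1% of the 324 peaks over both classes. Of the 144 peaks centred within 500 bp of a gene end, 32 were higher and 5 lower in H3.3null at day 1, and of the other 134 peaks 23 were higher and 22 lower. Over all peaks, 14.1% were higher and 10.6% lower. The other 134 peaks include all 30 flam peaks and all 4 CR46268 peaks, so the lower calls at these loci, described further on, count there. The difference between these positions was not tested. The 9 peaks over antisense genes held 2 higher calls and 0 lower calls in H3.3null at each age.

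The neighbouring genes CR44365 and CR44366 on 2R, both without a known role, had the smallest adjusted p among the 278 peaks in H3.3null. Their 5 peaks lay between 13574818 and 13580257, and all 5 were called higher in H3.3null at both ages. The peak at 13577413 to 13578358, which touches both genes, had 67.5, 84.6 and 78.3 CPM in the 3 OreR libraries at day 1 and 263, 254 and 251 CPM in H3.3null. At day 10 the values were 91.0, 76.4 and 77.9 CPM in OreR and 246, 256 and 234 CPM in H3.3null. Every H3.3null library lay far above every OreR library at either age. The log2 fold change was 1.73 ± 0.10 (SE) at day 1 and 1.59 ± 0.10 at day 10, with adjusted p of 5.11e-16 and 6.36e-15 in edgeR's test. H3.3H3.2 stood in between, with 122, 119 and 118 CPM at day 1 and 128, 119.5 and 112 CPM at day 10. That was above OreR by 0.63 ± 0.10 (adjusted p = 1.18e-05) and 0.55 ± 0.10 (adjusted p = 9.86e-05), and below H3.3null by −1.10 ± 0.10 and −1.03 ± 0.10. H3.3S31A had 89.2, 96.5 and 83.2 CPM at day 1, and its day 10 values of 112, 86.6 and 116 CPM overlapped OreR. The day 10 call for H3.3S31A (0.36 ± 0.10, adjusted p = 0.0175) was lost without OreR day 10 replicate 2 or 3 and without H3.3S31A day 10 replicate 1 or 3 (adjusted p up to 0.134).

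The other 4 peaks of this pair of genes rose in H3.3null by 1.22, 1.59, 1.60 and 1.54 on the log2 scale at day 1, in order along the chromosome, and by 0.89, 1.46, 1.35 and 1.35 at day 10. The first of them, at 13574818, stayed near OreR in H3.3H3.2, at 0.16 ± 0.19 on day 1 and 0.07 ± 0.18 on day 10. The last ends 56 bp from the protein-coding gene CG6191.

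Of the further loci that rose in H3.3null at both ages, 4 of the named ones are given here. CR44697 on 2L (peak 4346614 to 4347593) had 44.5, 54.1 and 53.6 CPM in OreR at day 1, 183, 142 and 179 CPM in H3.3null, 72.7, 75.4 and 70.8 CPM in H3.3H3.2 and 56.7, 51.8 and 52.9 CPM in H3.3S31A. H3.3null thus stood clear of the other genotypes, H3.3H3.2 was above OreR without overlap, and H3.3S31A overlapped OreR. The log2 fold changes from OreR at day 1 were 1.72 ± 0.12 in H3.3null (adjusted p = 2.73e-14) and 0.52 ± 0.12 in H3.3H3.2 (adjusted p = 0.00175). At day 10 the value was 1.28 ± 0.11 in H3.3null, while H3.3H3.2 was at 0.22 ± 0.12 and not called (adjusted p = 0.29).

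CR44833 on X (peak 4957811 to 4959837, 92 bp from CG15468) had 145, 188 and 181 CPM in OreR at day 1 and 489, 402 and 438 CPM in H3.3null, a rise by 1.37 ± 0.10 on the log2 scale. The day 10 change was 1.26 ± 0.10. In H3.3H3.2 the changes were 0.37 ± 0.10 and 0.43 ± 0.10, the first of which lost its call without OreR day 1 replicate 1 (adjusted p = 0.0998). Both H3.3null groups lay above all OreR libraries. CR31840 on 2L (peak 14023712 to 14024873) had 168, 154 and 169.7 CPM in OreR at day 1 and 358, 342 and 363 CPM in H3.3null, a rise of 1.11 ± 0.09, and it rose by 1.24 ± 0.09 at day 10. H3.3H3.2 was at 0.27 ± 0.09 at day 1 (adjusted p = 0.0567) and 0.30 ± 0.09 at day 10, a call lost without H3.3H3.2 day 10 replicate 1 or any 1 OreR day 10 library. CR43857 on 2L (peak 7423333 to 7423945) rose by 0.70 ± 0.10 and 0.84 ± 0.10 in H3.3null, with H3.3H3.2 at 0.21 ± 0.11 (adjusted p = 0.245) and 0.48 ± 0.11 (adjusted p = 0.00112). None of these loci was called in H3.3S31A. At CR44697, CR44833, CR31840 and CR43857 alike, H3.3H3.2 was called below H3.3null at both ages, although the CR43857 call at day 10 (−0.36 ± 0.10) was lost without H3.3H3.2 day 10 replicate 1 or 2 or H3.3null day 10 replicate 2.

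**Figure D2:**
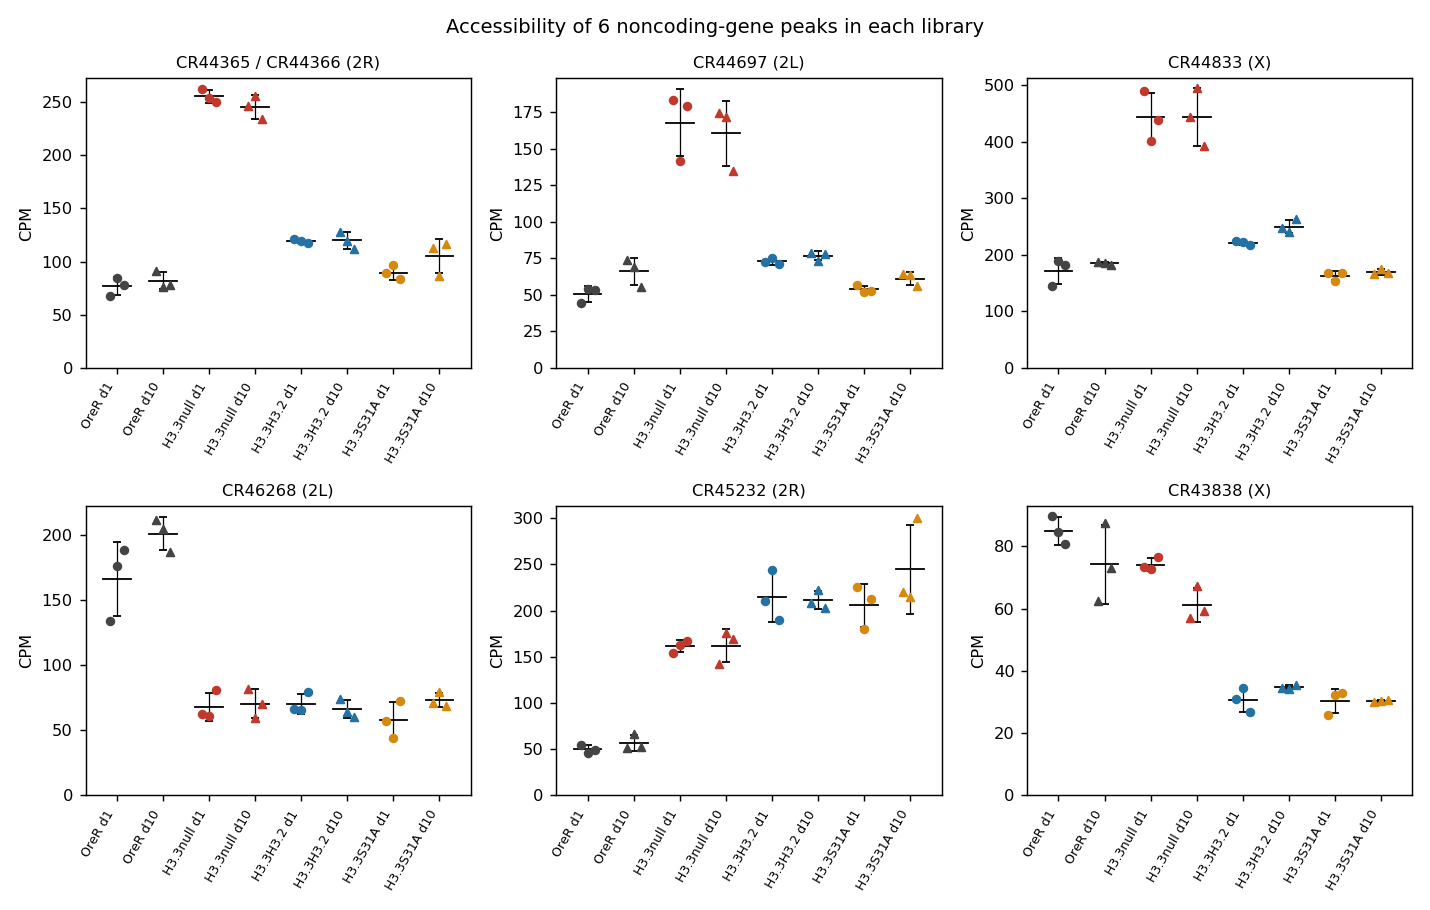
CPM in each library at 6 noncoding-gene peaks, by genotype and day (circles day 1, triangles day 10; horizontal bars are group means and error bars SD, n = 3). The upper row shows peaks high in H3.3null, and the lower row shows CR46268 (low in all mutants), CR45232 (high in all mutants) and CR43838 (low in H3.3H3.2 and H3.3S31A).

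CR46268 and CR45232 differed from OreR in every mutant. All 4 peaks of CR46268, a gene near the centromere end of 2L with no known role, were called lower in all 6 comparisons. Its peak at 22545206 to 22546302 had 134, 176 and 188 CPM in OreR at day 1 and 212, 205 and 187 CPM at day 10. The 18 mutant libraries ranged from 43.9 to 82.0 CPM, all below the OreR libraries. Over the 4 peaks and 6 comparisons the log2 fold change ran from −0.93 to −1.78, and 0 of these 24 calls was lost under another setting. No peak of CR46268 was called between H3.3H3.2 and H3.3null.

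CR45232 on 2R (peak 16298158 to 16298543, 926 bp from Atg9) moved the other way. It had 54.6, 46.2 and 48.8 CPM in OreR at day 1, 154, 163 and 168 CPM in H3.3null, 211, 244 and 190.4 CPM in H3.3H3.2 and 225, 180.2 and 213 CPM in H3.3S31A. At day 10 OreR had 51.1, 66.8 and 52.0 CPM and the mutant libraries 142 to 300.4 CPM. Every mutant library exceeded every OreR library. At day 1 the rise was 2.05 ± 0.13 in H3.3S31A and 2.11 ± 0.13 in H3.3H3.2, the largest among the 278 peaks in each of these genotypes, and 1.70 ± 0.13 in H3.3null. H3.3H3.2 was also above H3.3null, with 0.41 ± 0.11 at day 1 and 0.38 ± 0.12 at day 10 (adjusted p of 0.0135 and 0.0279). Those last calls were lost without H3.3H3.2 day 1 replicate 2 or H3.3null day 1 replicate 1, and at day 10 without any 1 H3.3H3.2 library or without H3.3null day 10 replicate 1.

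CR43838 on X separated the genotypes differently. Its peak at 20760397 to 20760772 lies 299 bp from shakB, which encodes innexins of electrical synapses. OreR had 89.8, 84.6 and 80.7 CPM at day 1 and H3.3null 73.3, 72.8 and 76.5 CPM. H3.3H3.2 had 30.9, 34.6 and 26.8 CPM and H3.3S31A 25.8, 32.4 and 32.8 CPM. The H3.3H3.2 and H3.3S31A libraries lay below all OreR and H3.3null libraries. H3.3H3.2 fell by 1.46 ± 0.12 at day 1 and 1.10 ± 0.12 at day 10, and H3.3S31A fell by 1.49 ± 0.12 and 1.29 ± 0.13, with adjusted p of 1.54e-11, 1.33e-08, 1.59e-11 and 7.67e-10. For H3.3null the values were −0.20 ± 0.11 (adjusted p = 0.227) and −0.28 ± 0.12 (adjusted p = 0.0774). H3.3H3.2 was below H3.3null by −1.27 ± 0.12 and −0.82 ± 0.12.

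A few peaks were called higher in H3.3S31A. CR45180 on 3L (peak 25708445 to 25709474) had 81.0, 69.2 and 64.5 CPM in OreR at day 10 and 118, 126 and 118 CPM in H3.3S31A, a rise of 0.75 ± 0.16 (adjusted p = 0.00174), and it was at 0.47 ± 0.17 (adjusted p = 0.0772) at day 1. CR45324 on 2R rose by 0.36 ± 0.11 at day 1, CR43753 on 2L by 0.35 ± 0.12 at day 1, and CR44619 on X by 0.33 ± 0.10 at day 10. Those 3 calls had adjusted p of 0.0257, 0.0473 and 0.0258 and each was lost without at least 1 OreR library and without at least 1 H3.3S31A library of the same day. The CR43753 peak was not high in H3.3S31A alone, since H3.3null was at 0.39 against OreR at day 1 and at −0.15 at day 10.

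The gene with the most peaks was flam (flamenco) on X, from 21631891 to 21790731. It is transcribed into a precursor of piRNAs, the small RNAs that silence transposons, and is best known from the somatic cells of the ovary. The gene is built of transposon remnants, and how reads that match several places were counted is not given in the sources used here, so levels at its 30 peaks are uncertain. In H3.3null, 8 flam peaks were higher and 6 lower at day 1, against 14.1% and 10.6% of all peaks. At day 10, 13 were higher and 3 lower, against 15.5% and 9% of all peaks. At both ages 8 flam peaks were higher and 3 lower, so neighbouring peaks of the same gene moved in opposite directions. H3.3S31A had 1 higher and 5 lower flam peaks at day 1 and 2 higher and 3 lower at day 10. Over all peaks the H3.3S31A shares were 6.24% higher and 4.27% lower, then 6.43% and 3.77%. H3.3H3.2 had 2 higher and 4 lower flam peaks, and 3 higher and 3 lower. Its shares over all peaks were 6.94% higher and 4.21% lower, then 7.13% and 3.54%. Over the 6 comparisons 11 flam peaks had no call. Neither this count nor the count at both ages has a background here.

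The widest flam peak, 21711354 to 21715885, showed opposite changes by genotype. OreR had 1048, 1265 and 1447 CPM at day 1 and 1072, 1228 and 1056 CPM at day 10. H3.3null had 2514, 2212 and 2453 CPM, and 2652, 2409 and 2354 CPM. H3.3H3.2 had 579, 638 and 673 CPM, and 553, 529 and 603 CPM, while H3.3S31A had 632, 604 and 659 CPM, and 548, 745 and 578 CPM. Every H3.3null library was above every OreR library, and every H3.3H3.2 and H3.3S31A library was below them. The log2 fold change from OreR was 0.93 ± 0.13 and 1.14 ± 0.13 in H3.3null, −0.99 ± 0.13 and −0.84 ± 0.13 in H3.3S31A, and −0.99 ± 0.13 at both ages in H3.3H3.2, with the largest adjusted p at 6.28e-06. H3.3H3.2 was below H3.3null by −1.93 ± 0.13 and −2.14 ± 0.13, the largest falls among the 278 peaks in that comparison.

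Elsewhere in flam, the narrow peak at 21655723 had 18.6, 24.2 and 21.8 CPM in OreR at day 1, 45.8, 47.6 and 43.4 CPM in H3.3null and 15.4, 21.3 and 21.7 CPM in H3.3H3.2 at day 10. It rose in H3.3null by 1.08 ± 0.17 and 1.09 ± 0.18 and was not called in the other mutants. Its neighbour at 21655084, under 1 kb away, fell by 0.66 in H3.3null at day 1 and by 0.54 at day 10, the latter call being lost without replicate 2 or 3 of either group. The peak at 21652069 was called higher in every mutant at both ages, at 0.48 to 0.82, although only the H3.3null day 1 and H3.3H3.2 day 10 calls held without any 1 library. Summed over the 30 peaks, flam had 3158 to 4136 CPM in OreR, 4878 to 5672 CPM in H3.3null, 2890 to 3284 CPM in H3.3H3.2 and 2787 to 3302 CPM in H3.3S31A. The widest peak weighs heavily in these sums. It alone took 0.106% to 0.140% of counts in OreR and 0.223% to 0.264% in H3.3null. All 30 peaks took 0.321% to 0.401% and 0.492% to 0.565%. The widest peak took 0.054% to 0.067% in H3.3H3.2 and 0.056% to 0.074% in H3.3S31A. The sums therefore do not show that the other flam peaks moved together.

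**Figure D3:**
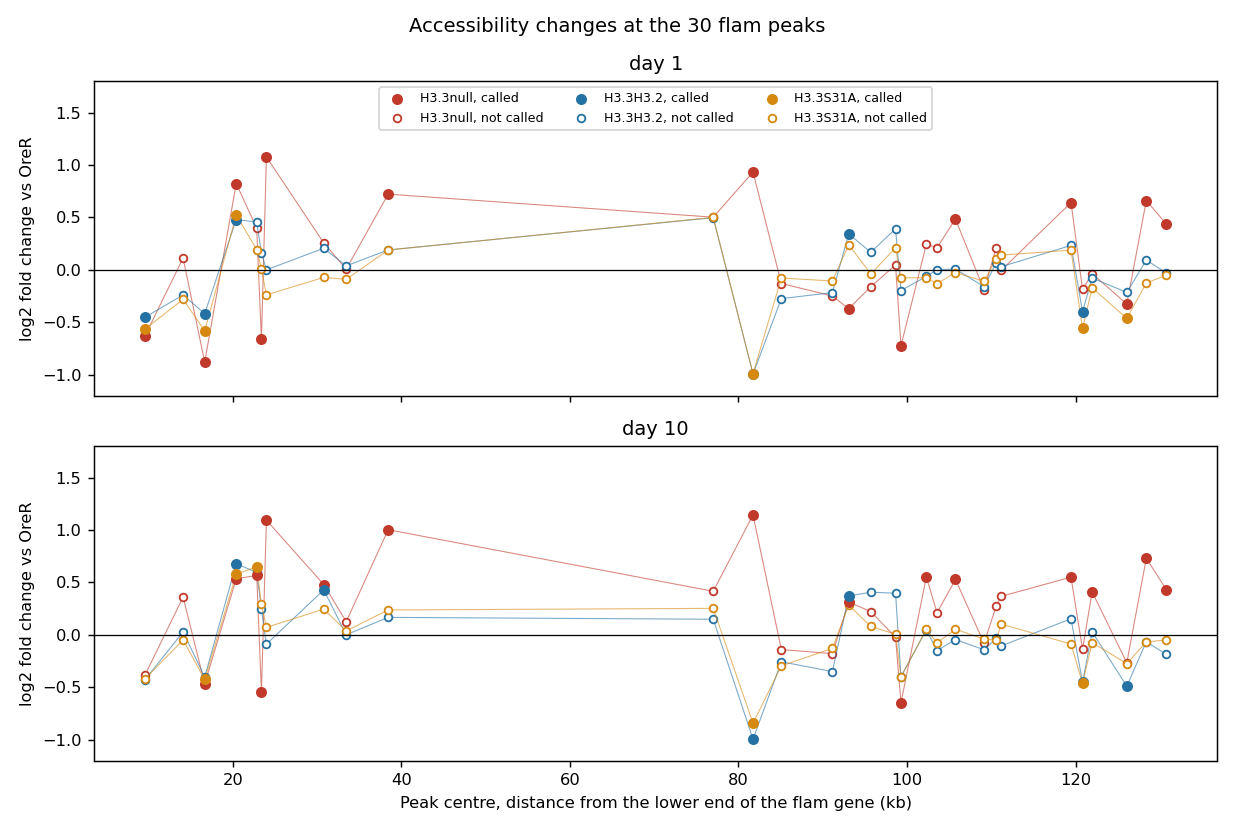
log2 fold change from OreR at the 30 flam peaks, plotted by distance of the peak centre from the lower-coordinate end of the gene in kb, at day 1 (top) and day 10 (bottom). Filled points were called at an adjusted p under 0.05, and the widest peak, near 80 kb, is above 0 in H3.3null and below 0 in H3.3H3.2 and H3.3S31A.

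All noncoding-gene peaks together took 2.93% to 3.13% of counts in OreR, 3.24% to 3.45% in H3.3null, 2.91% to 3.01% in H3.3H3.2 and 2.83% to 3.09% in H3.3S31A. The H3.3null libraries were the highest of the 4 genotypes. Leaving out flam, the group means were 2.64% and 2.71% in OreR at day 1 and day 10, and 2.89% and 2.78% in H3.3null. Without flam, the H3.3null libraries at 2.71% to 2.94% overlapped OreR at 2.53% to 2.78% over both ages, but not at day 1 alone, and lay above H3.3H3.2 at 2.585% to 2.698%.

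Apart from flam, the noncoding-only peaks of well-studied noncoding genes changed by less than 2-fold wherever they were called. The list of such genes was roX1, roX2, Hsromega, bxd, iab8, iab4, Fub-1, CRG, cherub, yar, sphinx, noe, MRRE, flam, let7C and bft, together with peaks that hold a microRNA gene. Of the 16 listed genes, 6 had a noncoding-only peak. let7C, the host transcript of the let-7, miR-100 and miR-125 microRNAs that time development, had 7 peaks. Its last peak, 18469732 to 18470473, had 85.8, 86.3 and 82.8 CPM in OreR at day 1 and 114, 119.9 and 125 CPM in H3.3null, against 71.9, 75.2 and 70.8 CPM in H3.3H3.2. H3.3null lay above OreR and H3.3H3.2 without overlap, and H3.3S31A was lower than OreR at day 1 (−0.33 ± 0.10, adjusted p = 0.0335), a call that 6 alternatives lost. The rise was 0.49 ± 0.10 at day 1 and 0.50 ± 0.10 at day 10, with adjusted p of 0.000206 and 0.000208. Peaks 18465742 and 18468745 rose by 0.30 and 0.47 in H3.3null at day 1, calls lost without H3.3null day 1 replicate 2 or OreR day 1 replicate 2 or 3 for the former and OreR day 1 replicate 1 for the latter, and the 4 peaks nearer the other end of let7C had no call against OreR.

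In the bithorax complex, which specifies posterior segments, iab8 had 11 peaks, of which 5 were noncoding-only and are described here. Its transcript hosts a microRNA and represses abd-A. Of these 5 peaks, 3 fell in H3.3null at day 10, by 0.58 ± 0.12 at 16898893, by 0.37 ± 0.10 at 16899440 and by 0.50 ± 0.15 at 16919028, and 0 were called at day 1. The last of these calls was lost without H3.3null day 10 replicate 1 or OreR day 10 replicate 3. The first of them had 120.4, 106 and 104 CPM in OreR and 55.8, 85.4 and 79.1 CPM in H3.3null. All 3 H3.3null libraries were below OreR, with replicate 1 the lowest. The single bxd peak was at −0.07 ± 0.09 and −0.23 ± 0.10 in H3.3null, and the single peaks of roX1 (0.01 ± 0.14 and −0.09 ± 0.14) and of cherub, a noncoding RNA of neural stem cell tumours (0.08 ± 0.12 and −0.27 ± 0.12), were likewise not called in any mutant.

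In all, 4 peaks held a microRNA gene. The peak over CR43651 and mir-14 (2R, 9553191 to 9554397) had 211, 189 and 183 CPM in OreR at day 1 and 263, 258 and 271 CPM in H3.3null. It rose by 0.44 ± 0.09 (adjusted p = 0.000247) and by 0.32 ± 0.09 (adjusted p = 0.00626) at day 10. Every H3.3null library was above every OreR library. The peaks over CR43459 with mir-34, a microRNA known for its part in brain ageing, over CR45347 with mir-4973 and over CR45911 with mir-2c were not called in any mutant. The mir-34 peak was at 0.35 ± 0.13 in H3.3null at day 1 and 0.32 ± 0.13 at day 10 (adjusted p of 0.0514 and 0.0699).

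**Figure D4:**
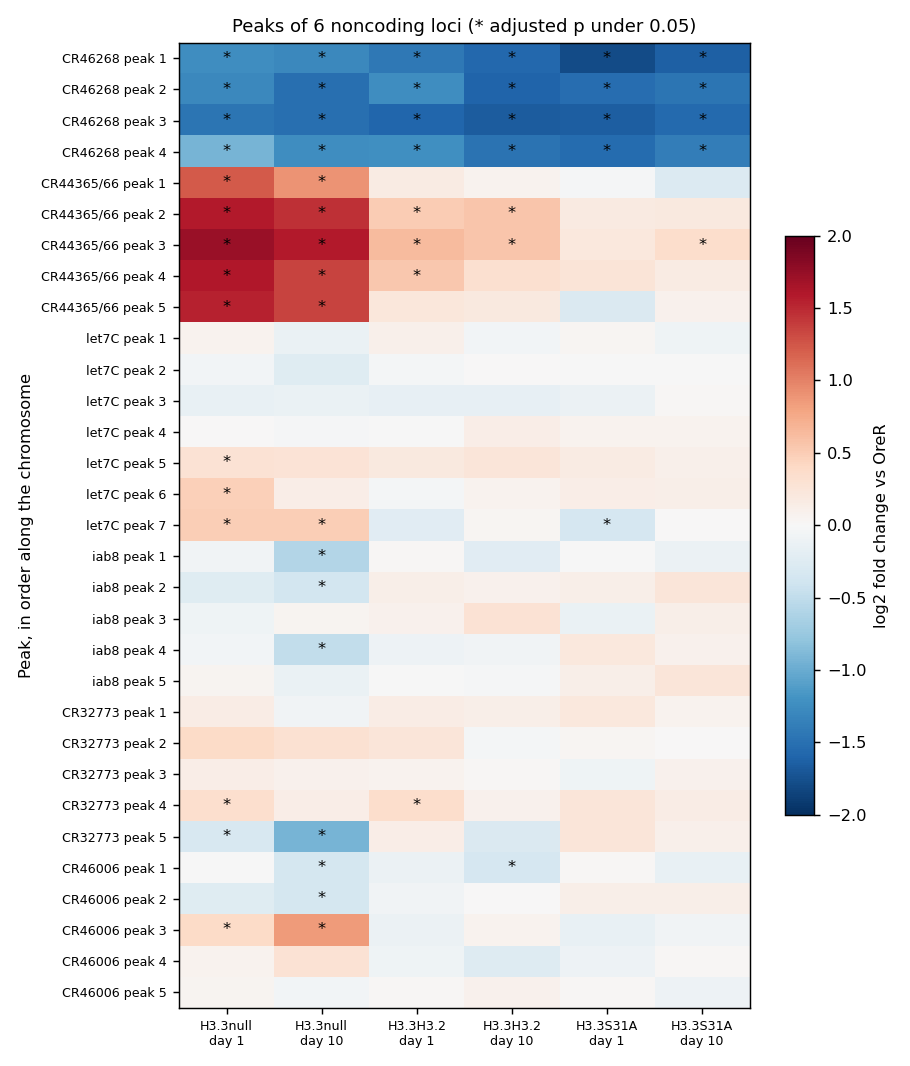
log2 fold change from OreR (colour; red higher, blue lower, scale −2 to 2) at every noncoding-only peak of 6 loci, with mutants and days in columns and peaks in chromosome order in rows; stars mark an adjusted p under 0.05. CR46268 is blue in all 6 columns, CR44365/66 is red mainly in H3.3null, and let7C and iab8 show scattered, smaller changes.

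Age changed few of these peaks. From day 1 to day 10, 10 noncoding-gene peaks fell and 2 rose in OreR, which is 4.32% against 1.91% of all peaks (1.19% lower, 0.718% higher). In H3.3null 7 fell and 1 rose, 2.88% against 0.924% of all peaks (0.538% lower, 0.386% higher). In H3.3S31A 6 fell and 2 rose, 2.88% against 0.987% (0.799% lower, 0.188% higher), and in H3.3H3.2 2 fell and 0 rose, 0.719% against 0.61% (0.52% lower, 0.0897% higher). In every called case the libraries of the 2 ages did not overlap. None of the calls reached 2-fold, and none lay in flam. Leaving out 1 library lowered the count to 6 of 12 in OreR (day 10 replicate 3), 3 of 8 in H3.3null (day 1 replicate 1), 4 of 8 in H3.3S31A (day 1 replicate 1) and 0 of 2 in H3.3H3.2 (day 1 replicate 3).

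Among the peaks that fell with age, 5 have a gene of the Antennapedia complex on 3R, the Hox cluster for head and thorax, as their nearest protein-coding gene. These are all 5 of the 278 peaks placed so, each called lower in 1 or more genotypes, and this grouping was chosen after the values were seen. The share of all peaks called lower in 1 or more genotypes is not given, so this count has no background here. The 5 peaks lie 1029 bp to 8224 bp from that gene. At CR45559, 2539 bp from Antp, OreR had 167, 156 and 144 CPM at day 1 and 106, 97.2 and 113 CPM at day 10. H3.3S31A went from 141, 179 and 150.1 CPM to 114, 96.5 and 97.8 CPM, and H3.3null from 166, 139.7 and 136 CPM to 94.0, 102 and 100.5 CPM. Day 10 was below day 1 in every library of each genotype. The log2 fold change was −0.56 ± 0.10 in OreR, −0.57 ± 0.11 in H3.3null, −0.60 ± 0.10 in H3.3S31A and −0.40 ± 0.10 in H3.3H3.2, the last not called (adjusted p = 0.0616).

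The peak over CR42651 and CR45915, 8224 bp from Dfd, had 45.3, 44.8 and 57.7 CPM in OreR at day 1 and 23.9, 32.9 and 23.9 CPM at day 10 (−0.88 ± 0.15, adjusted p = 0.000443), and it was at −0.57 ± 0.15 in H3.3S31A, a call lost without any 1 H3.3S31A library and with the replicate block (adjusted p = 0.0503). A second CR42651 peak, 7119 bp from Scr, was at −0.47 ± 0.11 in OreR, a call lost without OreR day 1 replicate 2 or day 10 replicate 3, and at −0.60 ± 0.10 in H3.3S31A. CR44930, 1029 bp from Ama, was at −0.75 ± 0.14 in OreR, −0.54 ± 0.14 in H3.3S31A and −0.62 ± 0.13 in H3.3H3.2, all called, and at −0.17 ± 0.14 in H3.3null (adjusted p = 0.688). The H3.3S31A call was lost without any 1 of its libraries, and the H3.3H3.2 call without H3.3H3.2 day 1 replicate 3 or day 10 replicate 1 or 3. CR45899, 1346 bp from Antp, was called in H3.3null alone, where it went from 147, 160.4 and 156 CPM to 98.0, 109 and 106 CPM (−0.57 ± 0.10, adjusted p = 0.00104), and it was lower in H3.3null than in OreR at both ages (−0.38 ± 0.09 and −0.71 ± 0.10). OreR was at −0.24 ± 0.09 (adjusted p = 0.226).

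Outside the Hox cluster, CR32773 on X fell with age at its peak 4589827 to 4590531 in H3.3null, from 106, 117 and 123 CPM to 63.2, 68.2 and 84.5 CPM (−0.67 ± 0.11), and in H3.3H3.2, from 157, 153 and 166 CPM to 106, 116 and 119 CPM (−0.49 ± 0.10). The H3.3H3.2 call was lost without H3.3H3.2 day 1 replicate 3 or day 10 replicate 1. OreR had 140.4, 141 and 153 CPM and then 129, 138 and 147 CPM. H3.3null was lower than OreR at day 1 by −0.33 ± 0.10 and at day 10 by −0.93 ± 0.11, the first call being lost without H3.3null day 1 replicate 1 or OreR day 1 replicate 3. CR46006 on 3L went the other way in H3.3null, from 47.3, 47.8 and 46.1 CPM to 63.2, 65.3 and 67.2 CPM (0.47 ± 0.12, adjusted p = 0.0469), a call lost without any 1 of these 6 libraries. CR46113 on 3R, whose calls were each lost in 3 of the settings without 1 library, rose in OreR by 0.53 ± 0.12 and in H3.3S31A by 0.57 ± 0.13, CR45054 on 3R rose in OreR by 0.44 ± 0.10 (lost without OreR day 1 replicate 2 or day 10 replicate 1), and CR45267 on 2R fell in OreR by 0.51 ± 0.09. CR44366, at its last peak, rose with age in H3.3S31A by 0.58 ± 0.12, a call lost with only the compared groups in the fit (adjusted p = 0.0516).

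**Figure D5:**
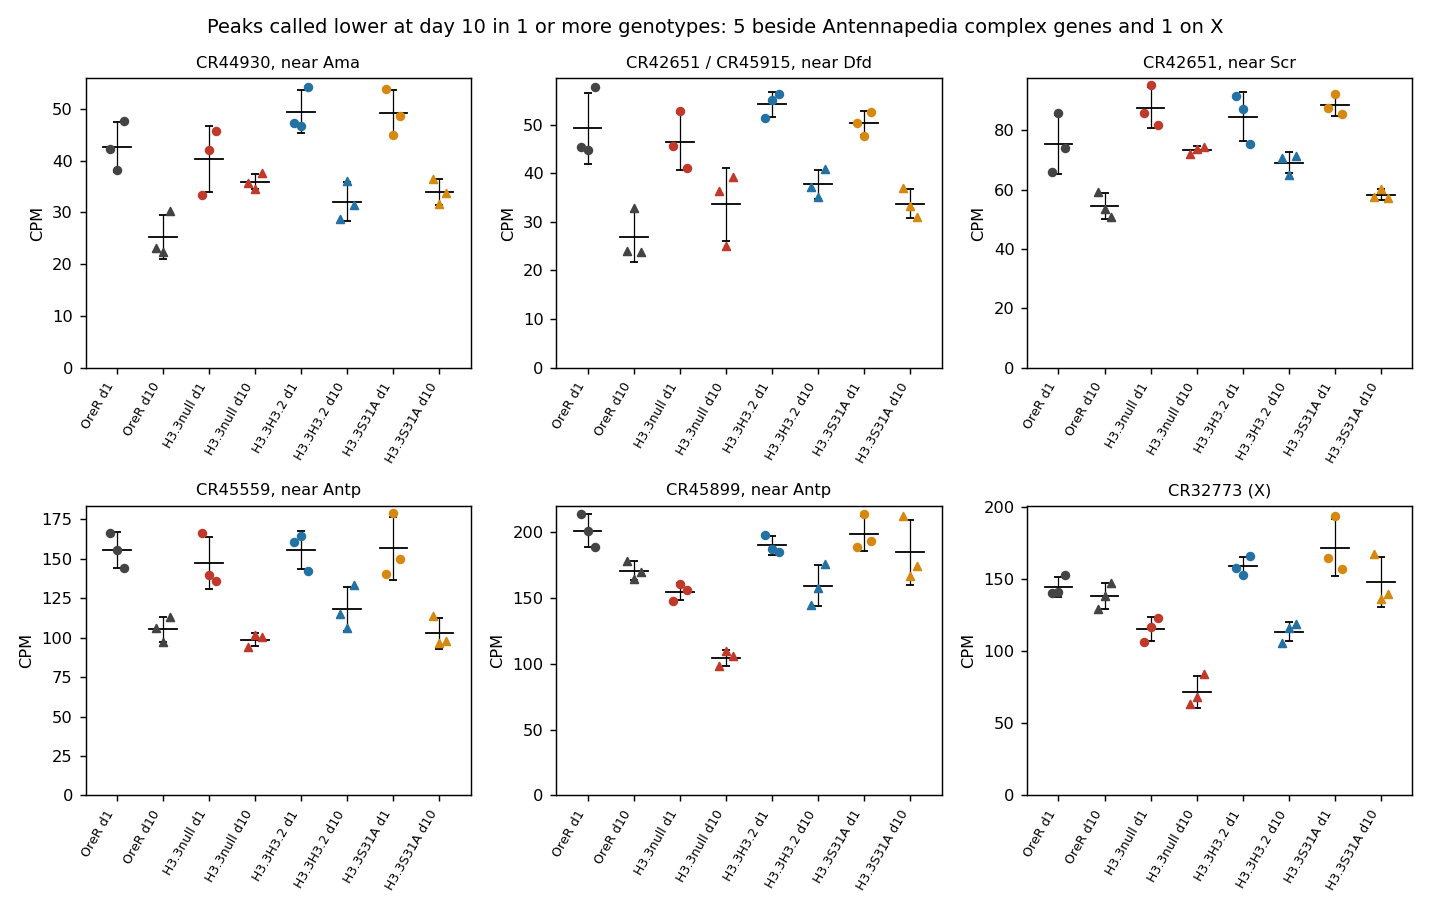
CPM in each library at 5 peaks beside Antennapedia complex genes and at the CR32773 peak on X (circles day 1, triangles day 10; horizontal bars are group means and error bars SD, n = 3). Day 10 means lie below day 1 means in every genotype at all 6 peaks, including the comparisons that were not called.

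Differences in age effect between a mutant and OreR were tested directly and gave 0 calls among the 278 peaks, and 0 among all peaks, for each mutant in edgeR's test. At an unadjusted p under 0.05 there were 24 noncoding-gene peaks for H3.3null, 9 for H3.3S31A and 8 for H3.3H3.2, which is 8.63%, 3.24% and 2.88% of the 278 peaks against 8.84%, 3.49% and 3.03% of all peaks. DESeq2 gave 1 call for H3.3null and 0 for the others. The CR32773 peak was at an adjusted p of 0.155 for H3.3null. The age calls above in 1 genotype and not in another are therefore not shown to differ between genotypes.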

How the data were processed

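The deposited values were raw counts per peak that the authors made for 24 libraries in 1 table of 11145 peaks, and coordinates are given as that table has them. The submitters' processing notes name build dm6, STAR 2.7.7a, SAMtools 1.9, bedtools 2.26, deepTools 3.2.0, featureCounts of Subread 2.0.1 and DESeq2 1.34.0. The peak caller, duplicate removal and any shift for the transposase are not given in the sources used here.

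Here, edgeR 4.0.16 with limma 3.58.1 (R 4.3.3) was run on all peaks: TMM factors, 8 group coefficients, a robust quasi-likelihood fit and Benjamini-Hochberg adjustment over 11145 peaks in each of 15 contrasts. DESeq2 1.42.0 was an alternative. CPM are counts per 1000000 of the TMM-scaled total, errors are SE of a log2 fold change or SD (n = 3), and the code was tested on simulated data. filterByExpr removed 0 peaks. TMM factors were 0.97 to 1.02, the common biological coefficient of variation was 8.96%, and the residual degrees of freedom were 16. Counts carry no molecular identifiers. The labels do not say that replicates came from separate cultures or animals, so p-values measure the spread between these libraries, which may be technical. The extraction text gives pools of 8 brains, but it describes RNA, so the pools used for ATAC-seq are not known from it.

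Gene classes came from the Release 6 RefSeq gene table. Named peaks were the 5 called peaks per direction with the smallest p and no overlap between libraries in each mutant comparison, or 2 in the others, plus a list of known genes. Members and lists were chosen with earlier results of these data known. The planned printing of sequences was not done, since no genome of the build was used here.

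Replicate numbers showed no pairing across all groups together. Same-numbered deviations from group means correlated at −0.388 to 0.384 over 84 pairs of groups and numbers (median −0.00748), with 24 pairs over 0.1. Among the day 1 groups, however, replicate 3 libraries correlated positively in every pair, at 0.147 to 0.353. Whether libraries of the same day shared a batch was not tested. The chi-square per degree of freedom between peak counts of 2 replicates ran from 2.2 to 8.22. OreR day 1 replicate 1 was at 5.9 and 7.97 against replicates 2 and 3, which were at 2.24 from each other. H3.3S31A day 10 replicate 1 was likewise at 8.22 and 5.71, against 3.14 between the other replicates.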

Additional observations from a re-analysis of the deposited data

Results flagged for a closer look

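At 4 peaks and in 6 pairs of effects, every library of one effect moved opposite to every library of the other. For CR43753 and for the flam peak below, both pairs express the same interaction in the same libraries, so they are not separate results. At CR43753 on 2L (2279354), H3.3null differed from OreR by 0.39 on the log2 scale at day 1 and −0.15 at day 10, and the age effect was 0.34 in OreR and −0.20 in H3.3null (edgeR interaction, adjusted p = 0.309).

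At the flam peak 21723811 to 21726144, H3.3null differed from OreR by −0.37 at day 1 and 0.31 at day 10, and the age effect was −0.28 in OreR and 0.40 in H3.3null (edgeR interaction 0.68 ± 0.16, adjusted p = 0.155). At day 1 its call did not hold without H3.3null day 1 replicate 1 or OreR day 1 replicate 2, nor at day 10 without H3.3null day 10 replicate 1 or 2 or any 1 OreR day 10 library. At the CR32773 peak on X (4589827), H3.3H3.2 differed from OreR by 0.13 at day 1 and −0.29 at day 10 (edgeR interaction, adjusted p = 0.999). At the iab8 peak 16919028, the age effect was 0.24 in H3.3H3.2 but −0.23 in H3.3null, and the difference between these genotypes was not tested.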

How the results depend on the processing

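Of 924 pairs of a named peak and a contrast, 215 were called. Of these, 150 kept the call under every alternative and 65 lost it under at least 1, and 0 called values reversed. Fitting only the compared groups lost 15 of the 215 calls, RLE size factors and library totals alone 4 each, DESeq2 2, the replicate block 2, a mean of at least 100 counts 1, and no filter 0.

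Counts of noncoding-gene peaks moved by over 1.5 times in a few settings, and the cause was not tested. With the compared groups only, the count was 53 for H3.3H3.2 against OreR at day 10 (31 in the fit of all groups), 6 for age in H3.3H3.2 (2) and 4 for age in H3.3S31A (8). DESeq2 gave 5 for age in H3.3H3.2 and 1 for the H3.3null age interaction (0). The replicate block was fitted although replicate numbers showed no pairing across all groups together. With it, counts for the 12 comparisons of 2 groups were 86, 84, 29, 33, 26, 19, 55, 59, 14, 7, 3 and 8, in the order of the report, and 0 for each interaction. Of 24 libraries, 12 correlated best with their own number.

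Without 1 library at a time, counts ranged from 69 to 86 and 69 to 88 for H3.3null against OreR at day 1 and day 10, 17 to 31 and 22 to 39 for H3.3H3.2, 16 to 28 and 13 to 19 for H3.3S31A, and 42 to 56 and 45 to 64 for H3.3H3.2 against H3.3null. Age counts ranged from 6 to 15 in OreR (lowest without day 10 replicate 3), 3 to 12 in H3.3null (without day 1 replicate 1), 0 to 3 in H3.3H3.2 (without day 1 replicate 3) and 4 to 10 in H3.3S31A (without day 1 replicate 1). Interactions stayed at 0.

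Mean shares of counts at day 1 and day 10 without 1 library ranged from 2.96% to 3.04% and 3.02% to 3.09% in OreR, 3.37% to 3.41% and 3.26% to 3.34% in H3.3null, 2.96% to 3.01% and 2.93% to 2.96% in H3.3H3.2, and 2.87% to 2.96% and 2.91% to 3.03% in H3.3S31A. Leaving out flam, a choice made after seeing the data, gave 2.64% and 2.71%, 2.89% and 2.78%, 2.66% and 2.65%, and 2.62% and 2.67% in the same order.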
